A study of Mus musculus with 4 samples.

Results

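The Kruppel-like factor (KLF) genes described here are 10 members of the family, Klf2, Klf3, Klf4, Klf5, Klf6, Klf7, Klf9, Klf10, Klf12 and Klf13, out of 18193 genes measured on Affymetrix arrays in sorted mouse hematopoietic stem cells (HSC). A probe set was taken for a member when the platform annotation gave that gene symbol and no other. Where a gene had several probe sets, the one with the highest mean over the 4 arrays gave its main value. The list of 10 was drawn up with differences between the groups already known, so every value below is a description of these pools. The cells were KLS CD48- CD150+ HSC, sorted from adult mice 2 weeks after tamoxifen-induced recombination. There were 2 Rb family deficient pools (genotype Rb -/- p130 -/- p107-/-) and 2 wild type pools (Rb +/+ p130 +/+ p107-/-), each pool from 3 mice. Both groups therefore lacked p107 by label and differed in Rb and p130. The Cre transgene that drove recombination is not given in the sources used here.

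KLF proteins bind GC-rich and CACCC-containing DNA through a run of C2H2 zinc fingers at the carboxyl end, and differ in the amino-terminal part that recruits partners. By those partners the family falls into activators (Klf2, Klf4, Klf5, Klf6 and Klf7 among the members), repressors that bind the co-repressor CtBP (Klf3 and Klf12), and repressors that bind Sin3A (Klf9, Klf10 and Klf13). Several are early response genes whose transcripts appear soon after a stimulus, and in blood cells KLF proteins are known for roles in quiescence, differentiation and homing. The retinoblastoma family (Rb1, p107 and p130) restrains E2F factors and entry into the cell cycle.

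Of the 10 members, 8 were found in the RefSeq promoter table of build GRCm38.p6. The 250 bases before the annotated start are shown for Klf2 and Klf4, the activators whose main values stood furthest above wild type in deficient pools, and for Klf12, the member that stood furthest below. Each is written 5′ to 3′ on the strand of the gene. Klf2 lies at chr8:72318812-72319061 (plus strand), Klf4 at chr4:55532476-55532725 (minus strand) and Klf12 at chr14:100149797-100150046 (minus strand). Capitals mark matches on either strand to the CACCC box (CACCC), the GC box (GGGCGG) and the MEF2 site.
Klf2: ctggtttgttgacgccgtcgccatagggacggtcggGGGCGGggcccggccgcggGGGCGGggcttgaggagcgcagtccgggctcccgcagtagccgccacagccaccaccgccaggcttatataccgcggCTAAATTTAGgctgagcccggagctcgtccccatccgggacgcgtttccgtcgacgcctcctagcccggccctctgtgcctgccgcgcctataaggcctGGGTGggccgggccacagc
Klf4: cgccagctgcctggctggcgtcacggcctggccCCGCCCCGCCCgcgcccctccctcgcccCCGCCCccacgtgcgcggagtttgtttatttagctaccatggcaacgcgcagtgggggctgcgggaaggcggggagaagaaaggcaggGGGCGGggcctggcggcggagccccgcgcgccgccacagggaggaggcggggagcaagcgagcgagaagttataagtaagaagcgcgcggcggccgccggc
Klf12: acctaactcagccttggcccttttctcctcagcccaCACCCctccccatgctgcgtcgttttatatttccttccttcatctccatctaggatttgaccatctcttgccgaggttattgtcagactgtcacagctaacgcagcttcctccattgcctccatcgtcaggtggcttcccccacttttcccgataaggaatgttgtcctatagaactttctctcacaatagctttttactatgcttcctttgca
The Klf2 stretch was 71.2% G and C and the Klf4 stretch 74.0%, against 48.0% for Klf12, and the median over 32851 promoters of the table was 52.4%. Klf2 held 2 GC boxes and 1 CACCC box, Klf4 held 4 GC boxes (of which 2 overlap by a base) and 0 CACCC boxes, and Klf12 held 0 GC boxes and 1 CACCC box. Over the 8 members, 6 held a GC box and 6 a CACCC box, where 32.7% and 52.0% of all promoters of this length did. The MEF2 site, which binds factors downstream of the kinases MEK5 and ERK5, was found in 1 member, Klf2, from 118 to 109 bases before the start, and in 2.92% of all promoters. The full cAMP response element (TGACGTCA), the AP-1 site (TGAGTCA), the CArG box and the E2F site (TTTCCCGC, TTTGGCGC or TTTCGCGC) were found in 0 of the 8 members, against 1.55%, 4.46%, 1.47% and 1.53% of all promoters. The core of the cAMP response element, TGACG, was found in 5 members and 17.8% of all promoters. The STAT site (TTCNNNGAA) and the FOXO site (GTAAACA) were each found in 1 member, Klf9, and in 7.02% and 3.17% of all promoters. A match describes letters only, and both strands were searched for each motif.

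No gene passed limma's adjusted p of 0.05 over the 18193 genes, in either direction (0 higher and 0 lower, 0.00% each), while 399 (2.19%) had a positive difference with an unadjusted p below 0.05 and 735 (4.04%) a negative one. Pearson's r between arrays, across genes that are not independent replicates, ran from 0.983 to 0.990 for pools of different groups and was 0.990 between the deficient and 0.987 between the wild type pools. Of the targeted genes, Rbl2 (p130) differed by -0.83 (SE 0.19), Rbl1 (p107) by -0.96 (SE 0.30) and Rb1 by 0.29 (SE 0.16), as log2 differences, deficient minus wild type. Rbl1 was -0.53 without wild type pool 2 and -0.22 by the mean of its probe sets, and Rb1 was 0.19 without wild type pool 1. Rbl1 stood at 5.35 and 5.42 in deficient pools and 5.92 and 6.77 in wild type pools, all but the last below the array's median. The labels give both groups the same p107 genotype, and the cause of the Rbl1 difference was not tested. None of these values checks the labels, because for Rb1 and Rbl2 it is not known here whether the probes fall within the deleted exons. For the Actb controls of RNA quality, the 3′ probe set exceeded the 5′ one by 3.13 and 2.95 in deficient pools and 2.32 and 2.81 in wild type pools, without overlap. For Gapdh the same measure was 2.79 and 2.50 in deficient pools and 2.40 and 2.58 in wild type pools, with overlap, and the part of RNA quality in the results below was not tested. All values below are log2 expression values or differences of them, and SE is limma's moderated standard error.

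KLF messages stood on both sides of wild type. Of the 10 members, 8 had a difference above 0, as did 49.2% of all genes, and the median difference was 0.58, against -0.00376 over all genes. Both deficient pools lay above both wild type pools for 7 members (17.0% of all genes) and below both for 1, Klf12 (18.5% of all genes). At an unadjusted p under 0.05 there were 6 members higher (Klf2, Klf4, Klf5, Klf9, Klf10 and Klf13, beside 2.19% of all genes) and 1 lower (Klf12, beside 4.04%), with limma adjusted p from 0.761 to 0.867 over the 10. Klf2, Klf4 and Klf5 were at least 2-fold higher (0.528% of all genes) and Klf12 at least 2-fold lower (0.275%). Since the members were listed with these differences known, nothing is read from the shares.

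**Figure D1:**
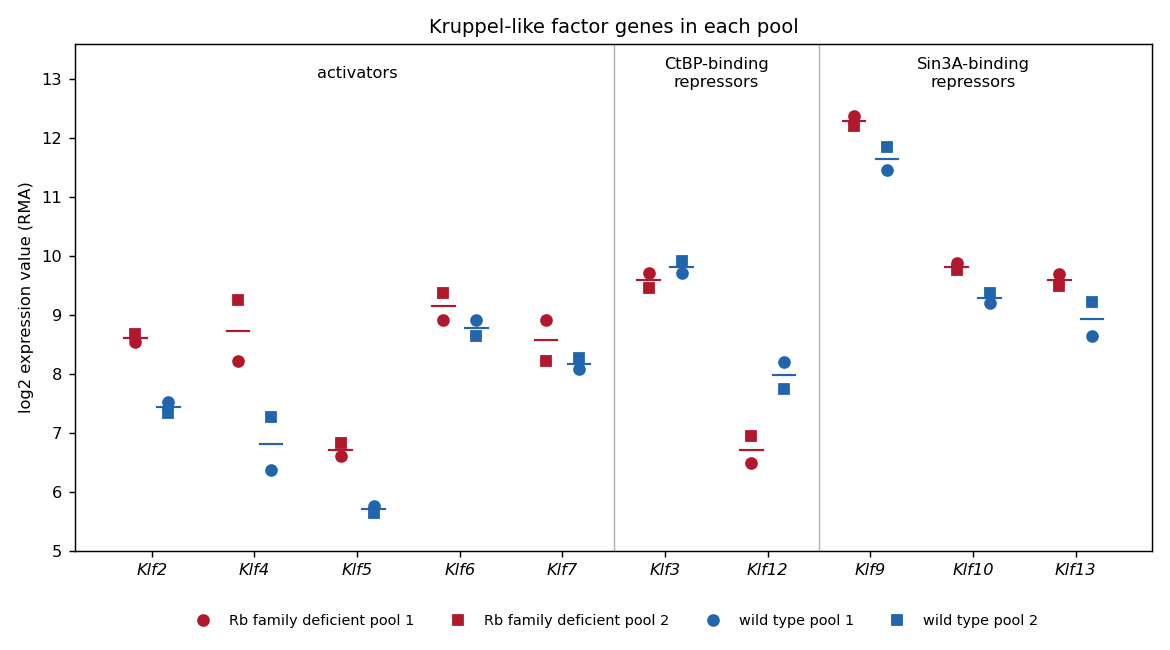
Log2 expression value (RMA) of the main probe set of each of the 10 genes in each pool, grouped by partner class. Red points are Rb family deficient pools and blue points wild type pools (circles pool 1, squares pool 2), and bars are means of 2 pools. The red points lie wholly above the blue for 7 genes, wholly below for Klf12, and overlap them for Klf3 and Klf7.

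Klf2 encodes an activator known for keeping T cells quiescent and for its response to flow in endothelium. It stood at 8.54 and 8.68 in deficient pools, against 7.53 and 7.34 in wild type pools. The groups did not overlap, and the pools within a group were 0.14 apart in the deficient and 0.19 in the wild type group. The difference was 1.18 (SE 0.16, limma adjusted p = 0.761, with 2 pools in each group), or 2.26-fold, the tenth lowest p of all genes. It ran from 1.08 to 1.27 when any single pool was left out. Klf2 was measured by 1 probe set.

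Klf4, a reprogramming factor that also promotes monocyte differentiation, stood at 8.22 and 9.25 in deficient pools, against 6.37 and 7.26 in wild type pools. Its difference was the highest of the members, 1.92 (SE 0.44, limma adjusted p = 0.761), or 3.78-fold. The pools within a group were also far apart, by 1.03 in the deficient and 0.89 in the wild type group, and the lowest deficient pool exceeded the highest wild type pool by 0.96. The dimmer of its 2 probe sets stood at 6.01 and 6.38 in deficient pools and 5.41 and 5.52 in wild type pools, a difference of 0.73 (SE 0.19). The main difference was 1.41 without deficient pool 2 and 2.43 without deficient pool 1.

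Klf5 encodes an activator of epithelial proliferation that in mice is also needed for stem cell homing to marrow. It stood at 6.60 and 6.83 in deficient pools, against 5.76 and 5.64 in wild type pools, with no overlap. The difference was 1.02 (SE 0.16, limma adjusted p = 0.761), or 2.02-fold. Its wild type values lie below the medians of those arrays (5.94 and 5.96), and no call of signal above background was used here. Its second probe set differed by 0.66 (SE 0.21) and its dimmest by 0.02 (SE 0.18). The mean of the 3 gave 0.57, and taking first a probe set whose name carries no _a, _s or _x mark of possible shared transcripts gave 0.66. Klf5 was thus at least 2-fold higher only narrowly: it was also below that fold with median centring (0.96), quantile normalization (0.97), deficient pool 2 left out (0.90) or wild type pool 2 left out (0.95), and was not among the genes kept by the filter on dim genes.

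Klf6, an early response gene of many tissues, had main values of 8.92 and 9.37 in deficient pools and 8.91 and 8.65 in wild type pools. The groups were separated by 0.01 at their nearest pools, and the difference was 0.37 (SE 0.21, limma adjusted p = 0.831). The 5 Klf6 probe sets spread from 0.06 to 0.99. The main probe set, with a mean of 8.96 over the arrays, was chosen narrowly over one with a mean of 8.86, which differed by 0.06 (SE 0.31) and carries no mark of shared transcripts. The probe set at 0.99 (SE 0.16) stood at 6.64 and 6.86 in deficient pools and 5.67 and 5.84 in wild type pools, without overlap. Its main difference was 0.60 or 0.14 with deficient pool 1 or 2 left out, and 0.24 without wild type pool 2.

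Klf7, an activator first known from neurons, stood at 8.92 and 8.22 in deficient pools, against 8.08 and 8.27 in wild type pools. The second deficient pool lay between the wild type pools, so the groups overlapped. The difference of 0.40 (SE 0.26, limma adjusted p = 0.846) came to 0.05 with deficient pool 1 left out, 0.74 with deficient pool 2 left out and 0.24 by the mean of its probe sets. All 4 Klf7 probe sets overlapped between groups, with differences from -0.37 to 0.48.

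**Figure D2:**
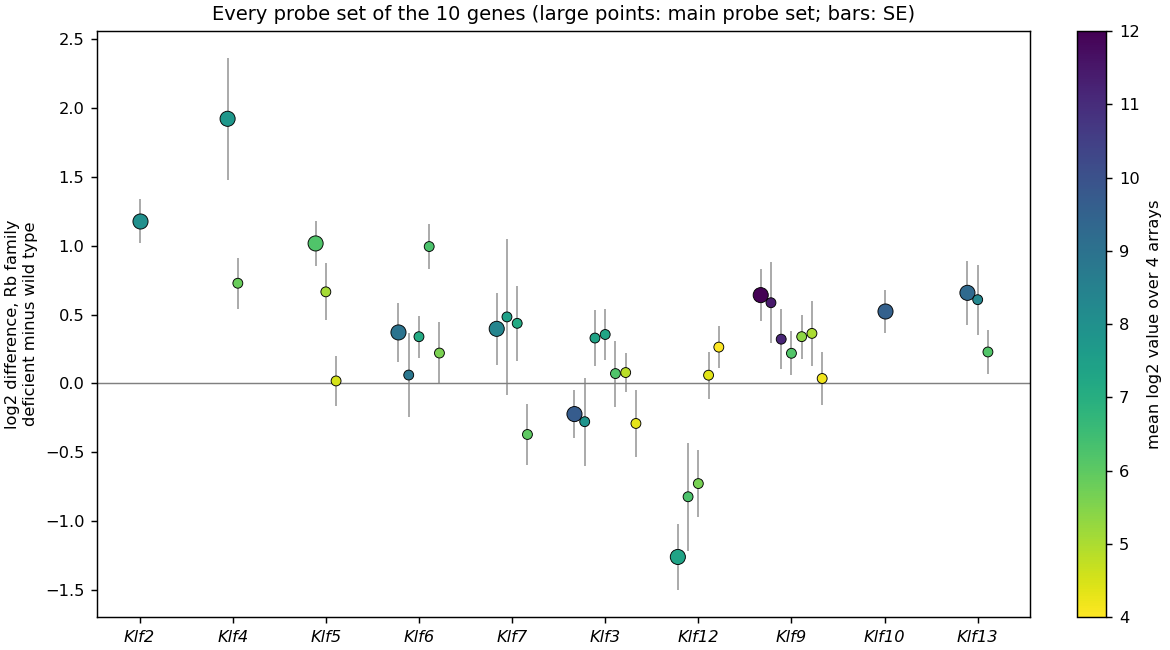
Log2 difference, Rb family deficient minus wild type, of each of the 38 probe sets of the 10 genes, with bars of 1 SE. Large points are main probe sets and colour gives the mean log2 value over the 4 arrays. Klf4, Klf5, Klf6, Klf9 and Klf13 lie above 0 with every probe set, while Klf3, Klf7 and Klf12 have probe sets on both sides of 0.

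The CtBP-binding repressors were the only members below 0 by their main values. Klf12, first described as a repressor of the AP-2 alpha gene, stood at 6.49 and 6.94 in deficient pools, against 8.20 and 7.75 in wild type pools. The groups did not overlap, and the nearest pools were 0.81 apart, with the deficient pool the lower. The difference was -1.26 (SE 0.24, limma adjusted p = 0.761), or 2.39-fold lower, and ran from -1.49 to -1.03 when any single pool was left out. The next 2 probe sets by signal differed by -0.82 (SE 0.39) and -0.73 (SE 0.24), both without overlap. The first of these stood at 5.93 and 5.78 in deficient pools and 7.27 and 6.09 in wild type pools. The other stood at 5.28 and 5.28 against 6.33 and 5.69. Both were highest in wild type pool 1, and their deficient values lie below the medians of those arrays (6.02 and 5.99). The dimmest 2 lay at 0.06 (SE 0.17) and 0.26 (SE 0.15), and the mean over all 5 was -0.50, short of 2-fold. In the RefSeq gene table Klf12 and Klf5 are neighbours on chromosome 14, with 0 protein-coding genes between them, and their main values lay on opposite sides of wild type.

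Klf3, a repressor with known roles in erythroid and B cells, stood at 9.72 and 9.47 in deficient pools, against 9.71 and 9.92 in wild type pools. The groups overlapped, and the difference was -0.22 (SE 0.17, limma adjusted p = 0.867). Of its 7 probe sets 4 were above 0 and 3 below, between -0.29 and 0.36, and their mean gave 0.00640. The main value was -0.35 or -0.10 with deficient pool 1 or 2 left out, -0.11 without wild type pool 2, and -0.13 with quantile normalization.

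The Sin3A-binding repressors among the members all stood above wild type in both deficient pools by their main values. Klf11, Klf14 and Klf16, also Sin3A-binding but not members, overlapped between the groups. Klf9, a target of glucocorticoid and thyroid hormone receptors, stood at 12.38 and 12.21 in deficient pools, against 11.46 and 11.84 in wild type pools. The difference was 0.64 (SE 0.19, limma adjusted p = 0.761), or 1.56-fold. All 7 Klf9 probe sets were above 0, from 0.04 to 0.64, with 4 of them free of overlap, and their mean was 0.36. Its deficient pools were 0.17 apart and its wild type pools 0.38.

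Klf10, the TGF-beta inducible early gene, stood at 9.88 and 9.76 in deficient pools, against 9.20 and 9.38 in wild type pools. Its only probe set differed by 0.52 (SE 0.15, limma adjusted p = 0.761), or 1.44-fold, and by 0.44 to 0.61 when a pool was left out. The groups did not overlap, and pools of 1 group were closer (0.12 and 0.18) than the nearest pools across groups (0.37).

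Klf13, which in T cells activates the chemokine gene Ccl5, stood at 9.69 and 9.49 in deficient pools, against 8.65 and 9.22 in wild type pools. The difference was 0.66 (SE 0.23, limma adjusted p = 0.782), or 1.58-fold. The wild type pools were 0.57 apart, and the difference was 0.37 without wild type pool 1 and 0.94 without wild type pool 2. The other Klf13 probe sets differed by 0.61 (SE 0.25) and 0.23 (SE 0.16), and none of the 3 overlapped between groups. Over all 38 probe sets of the members, 20 had both deficient pools above both wild type pools and 3 had both below, where 18.1% and 17.4% of all 34945 named probe sets did. A difference above 0 was seen for 31 of the 38, and for 50.9% of all probe sets. Probe sets of 1 gene share their transcripts and are not replicates.

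The rest of the family was measured in 13 genes, and 0 of them reached an unadjusted p under 0.05 (2.19% of all genes higher, 4.04% lower). The 6 other KLF genes had a median difference of -0.02, with 3 above 0 (49.2% of all genes). The erythroid activator Klf1 stood at 9.65 and 8.81 in deficient pools and 7.40 and 9.86 in wild type pools, a difference of 0.59 (SE 0.81). Its wild type pools enclosed both deficient pools, and the difference was 1.82 without wild type pool 2 and -0.64 without wild type pool 1. Klf15, a glucocorticoid-responsive metabolic regulator, was the only one of the 6 without overlap. It stood at 4.80 and 5.28 in deficient pools against 4.70 and 4.35 in wild type pools (0.51, SE 0.23). Its difference was 0.27 without deficient pool 2 and 0.34 with wild type pool 2 left out. All its values lie well below the array medians, which ran from 5.94 to 6.02, so this separation is of dim signal. The Sin3A-binding Klf11, Klf14 and Klf16 differed by -0.28 (SE 0.35), 0.00876 (SE 0.15) and -0.04 (SE 0.15), and Klf17 by -0.21 (SE 0.17). The related SP genes had a median of 0.21 over 7, with the ubiquitous activator Sp1 at 0.25 (SE 0.23) and Sp3 at -0.38 (SE 0.39). The SP median came to 0.03 when dim genes were filtered out, and leaving out deficient pool 1 or wild type pool 1 made it 0.13 or 0.09. Klf11, Klf14, Klf16, Sp1 and Sp3 changed sign with a single pool left out, and Klf17 by the mean of its probe sets.

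**Figure D3:**
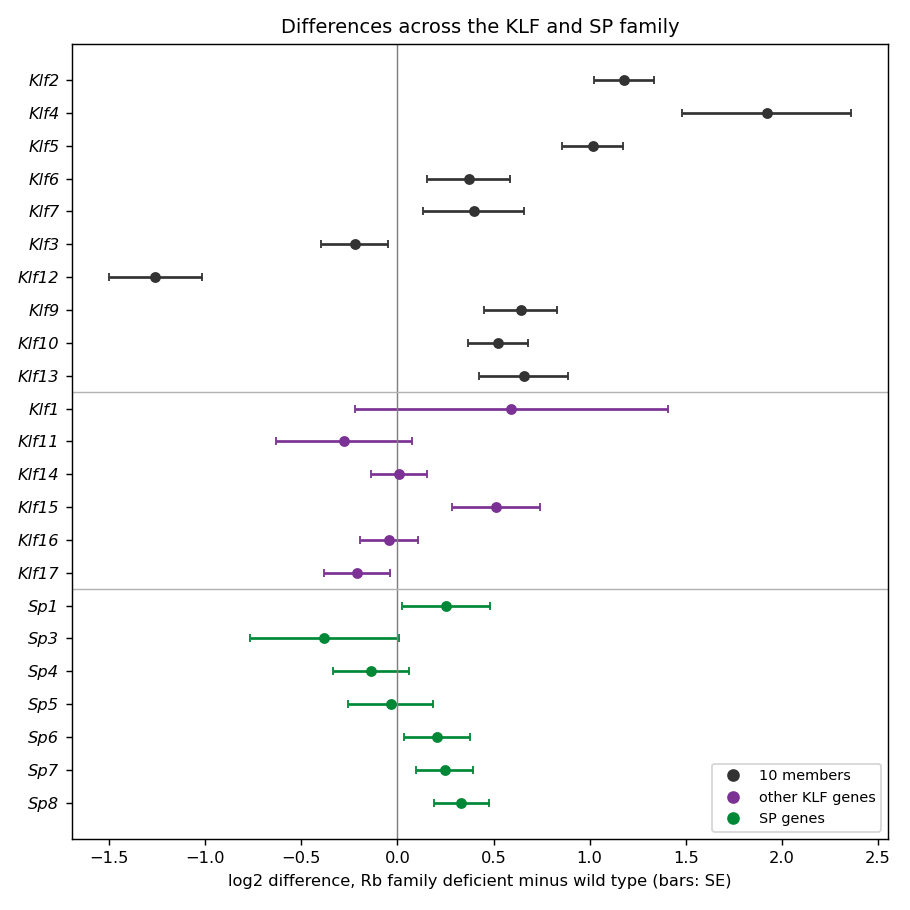
Log2 difference, Rb family deficient minus wild type, for the 10 members (black, by partner class), 6 other KLF genes (purple) and 7 SP genes (green), main probe set of each gene, with bars of 1 SE. Klf4, Klf2, Klf5 and Klf12 lie furthest from 0, and Klf1 has the widest bar.

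Genes upstream and downstream of the KLF factors were read as lists. Of 11 genes of the MEK5-ERK5-MEF2 route and its FOXO and HDAC partners, 0 passed the adjusted threshold in either direction. Of the 11, 4 lay above 0 (49.2% of all genes) and the median was -0.03. Those with the lowest p were Map3k3 (0.32, SE 0.18), Map3k2 (-0.34, SE 0.21), Mef2c (-0.20, SE 0.14) and the histone deacetylase gene Hdac5 (-0.41, SE 0.38, and 0.11 without wild type pool 1). By the mean of probe sets Map3k3 was 0.17, Map3k2 0.0324 and Mef2c -0.08. The kinase genes of the route, Map2k5 (MEK5) and Mapk7 (ERK5), differed by -0.00512 (SE 0.14) and 0.15 (SE 0.17). Of 10 cofactor and turnover genes 0 passed, 5 lay above 0 (49.2% of all genes) and the median was 0.02. Smurf1, a ubiquitin ligase that acts on KLF2, stood at 6.11 and 6.68 in deficient pools and 7.05 and 6.98 in wild type pools (-0.62, SE 0.22), and was -0.33 without deficient pool 1 and -0.30 by the mean of its probe sets. Fbxw7, which also targets KLF proteins for degradation, differed by -0.21 (SE 0.15), the CtBP gene Ctbp2 by 0.31 (SE 0.18) and Siah1a, a further ubiquitin ligase gene, by 0.35 (SE 0.23). By the mean of probe sets these were -0.32, 0.000389 and 0.18, and Siah1a was -0.13 with specific probe sets first.

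Of 14 measured genes reported as KLF targets in other cells, 0 passed in either direction. A difference above 0 was seen for 9 (49.2% of all genes), and the median was 0.09. At an unadjusted p under 0.05, 3 were higher (2.19% of all genes) and 1 lower (4.04%). The CDK inhibitor gene Cdkn1a, activated by KLF2, KLF4 and KLF6 in other settings, stood at 9.27 and 9.96 in deficient pools, against 8.48 and 8.40 in wild type pools (1.17, SE 0.25). Cyclin D1 (Ccnd1), repressed by KLF4 and activated by KLF5 in other cells, stood at 7.01 and 7.59 in deficient pools, against 9.38 and 8.62 in wild type pools (-1.70, SE 0.33, or -1.07 by the mean of its probe sets). Neither gene overlapped between groups. Galectin-3 (Lgals3), a target repressed by KLF3, stood at 10.002 and 8.16 in deficient pools and 6.35 and 7.63 in wild type pools (2.09, SE 0.71), with 1.17 without deficient pool 1. The thrombomodulin gene Thbd differed by 0.37 (SE 0.14), while S1pr1, a KLF2 target in T cells, differed by -0.07 (SE 0.14). Ccl5, the KLF13 target, stood at 7.28 and 6.83 in deficient pools and 6.96 and 7.87 in wild type pools, with overlap (-0.36, SE 0.34).

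Profiles were ranked by the distance between the 4 centred log2 values of each gene. Symbols of Gm plus a number, ending in Rik, or starting with LOC, AI, BC or AW plus digits were passed over. Among the rest, the genes with profiles most like Klf2 were Klf5 (distance 0.18), Skil (0.21) and Lrg1 (0.27). Those most like Klf5 were Lbp (0.14), Klf2 (0.18) and Nav2 (0.20). For Klf4 the nearest were further off, Id1 (0.43), Nr4a2 (0.61) and Prom1 (0.67). The distance is not scaled by the size of a gene's changes, so distances of different members are not directly comparable. Pools of Klf4 were up to 2.88 apart, against 1.34 for Klf2 and 1.19 for Klf5. Id1 stood at 7.07 and 7.96 in deficient pools and 5.61 and 6.396 in wild type pools. Pool 2 was the higher in both groups, as for Klf4, a likeness built into its choice by distance. Each distance is over 4 arrays and rests on main probe sets: by the mean of probe sets Skil differed by 0.84, Nr4a2 by 0.79, Lbp by 0.45 and Nav2 by 0.20, against main differences of 1.30, 1.81, 0.89 and 0.84. Prom1, at 1.49, was 0.75 without deficient pool 2 or wild type pool 1.

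The members differed in how the 4 pools were ordered. Klf2, Klf5 and Klf6 were highest in deficient pool 2 and lowest in wild type pool 2, an order that 3.12% of all genes had. Klf9, Klf10 and Klf13 were highest in deficient pool 1, then deficient pool 2, wild type pool 2 and wild type pool 1 (5.88% of all genes), and Klf12 had the reverse of that order (6.58%). Klf4 was highest in deficient pool 2, then deficient pool 1, wild type pool 2 and wild type pool 1 (4.34%).

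Markers of other cell states shared some of these orders, and their part in the KLF values was not tested. The 7 measured mature neutrophil markers come from a cell type outside the sort gate. Their mean log2 levels were 12.62 and 11.70 in deficient pools and 10.57 and 11.53 in wild type pools. This was the order of Klf9, Klf10 and Klf13. By the median level that order did not hold, with 13.38 and 12.96 in deficient pools and 11.45 and 13.04 in wild type pools. For S100a9, Ltf and Camp, wild type pool 2 lay above deficient pool 2. All 7 lay above 0 (49.2% of all genes), with a median of 0.98, or 0.38 to 1.61 with a pool left out, and 4 had both deficient pools above both wild type pools (17.0% of all genes). Those of lowest p were Mmp8 at 2.24 (SE 0.60), Lcn2 at 1.30 (SE 0.44), S100a8 at 0.98 (SE 0.45) and Ngp at 0.55 (SE 0.22). Without deficient pool 1 these came to 1.31, 0.69, 0.64 and 0.34, and without wild type pool 1 S100a8 was 0.38 and Ngp 0.36. S100a8 itself stood at 14.28 and 13.61 in deficient pools and 12.36 and 13.56 in wild type pools. The 15 immediate early genes had mean levels of 9.28 and 9.93 in deficient pools and 8.40 and 8.72 in wild type pools, the order of Klf4. All 15 lay above 0 (49.2% of all genes), with a median of 1.02, or 0.66 to 1.24 with a pool left out. For 12 of them both deficient pools lay above both wild type pools (17.0% of all genes), and 0 passed the adjusted threshold. Egr2 stood at 6.09 and 7.82 in deficient pools and 3.94 and 4.01 in wild type pools (2.98, SE 0.55). Its wild type values lie well below the medians of those arrays (5.94 and 5.96), and with no call of signal above background used here the size of its difference is not settled. The next by p were Jund at 1.05 (SE 0.21, or 0.63 by the mean of its probe sets), Fos at 1.10 (SE 0.23) and Ier3 at 1.02 (SE 0.22).

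Of the HSC markers 5 were measured, of which 4 lay below 0 and 1 above (49.2% of all genes lay above). Their median was -0.59, or -0.81 to -0.28 with a pool left out. Their mean levels were 10.31 and 10.65 in deficient pools and 10.85 and 10.94 in wild type pools. Procr differed by -0.85 (SE 0.17), Mecom by -0.69 (SE 0.16), Kit by -0.59 (SE 0.28) and Hlf by -0.19 (SE 0.18), while the gate marker Slamf1 (CD150) stood at 9.26 and 9.90 in deficient pools and 8.81 and 9.86 in wild type pools. By the mean of probe sets Mecom was -0.32, Kit -0.03 and Hlf -0.34, and with a pool left out Kit ran from -0.90 to -0.28 and Hlf from -0.37 to -0.00944. In pooled cells, fewer cells of a type and less RNA per cell cannot be told apart. Marker lists for monocytes and macrophages, erythroid cells, megakaryocytes, B cells, T cells and endothelial cells had medians between 0.02 and 0.20, and the mean level of each overlapped between the groups. With a pool left out these medians ran from -0.20 to 0.42 for monocytes and macrophages, -0.36 to 0.32 for erythroid cells, -0.25 to 0.19 for megakaryocytes, 0.03 to 0.37 for B cells, -0.03 to 0.29 for T cells and -0.00306 to 0.15 for endothelial cells. The lowest values came without wild type pool 1 for monocytes, erythroid cells, B cells and T cells, without deficient pool 2 for megakaryocytes and without wild type pool 2 for endothelial cells. Within these lists 2 genes had an unadjusted p under 0.05, both higher and without overlap. Of all genes, 2.19% were higher and 4.04% lower at that p, so nothing is read from this count. The monocyte gene Cd14 stood at 7.09 and 6.66 in deficient pools and 6.12 and 6.27 in wild type pools (0.68, SE 0.20), and the platelet glycoprotein gene Gp1bb at 8.90 and 9.33 in deficient pools and 7.91 and 7.97 in wild type pools (1.17, SE 0.19).

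**Figure D4:**
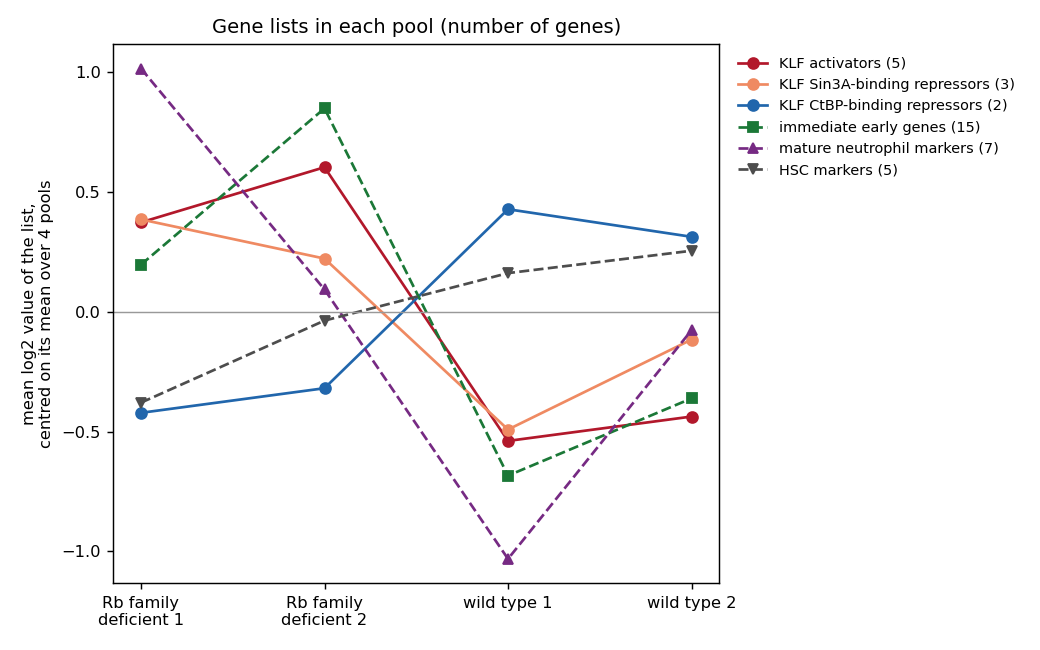
Mean log2 value of each gene list in each pool, centred on the mean of the list over the 4 pools. KLF classes, members only, are solid lines and other lists dashed, with the number of genes in brackets. The means of KLF activators and of immediate early genes peak in deficient pool 2. The means of Sin3A-binding KLF genes and of neutrophil markers peak in deficient pool 1. The means of CtBP-binding KLF genes and of HSC markers are lower in both deficient pools. Single genes can differ from the mean: the activator Klf7 is highest in deficient pool 1, and the CtBP-binding Klf3 overlaps between the groups.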

How the data were processed

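The data are 1 array per pool, 4 in all, hybridised with biotinylated cRNA made from Trizol-extracted total RNA, per the labels' protocols. The authors deposited 1 log2 value per probe set and array, made with RMA per the submitters' processing notes, which also name limma without version or settings. That the scale is log2 was judged by the range of values, 2.65 to 14.9. RMA gives arrays nearly the same distribution and so hides any change in total RNA per cell. Scanner files were not used here, and the number of arrays limits precision. Nothing states that pools came from separate breedings, so the spread between pools of a group may be technical. The p-values weigh each difference against that spread, which limma moderates across genes.

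Of 45101 probe sets, 34945 had exactly 1 gene symbol in the platform annotation of 2016, and symbols were updated through a RefSeq gene table of GRCm38.p6. Each gene took its probe set of highest mean, without a filter on dim probe sets, giving 18193 genes. Differences were fitted on all genes with limma 3.58.1 (lmFit, eBayes) in R 4.3.3, with Benjamini-Hochberg adjustment, and the fit was tested on simulated data. Probe sets were fitted in the same way over all 34945. The members, gene lists and marker lists were chosen with earlier results of these data known. Beyond the members, other KLF genes, the 2 SP genes of highest mean, up to 4 genes of lowest p per list, the targeted genes and the 3 nearest profiles of Klf2, Klf4 and Klf5 are named; Map2k5, Mapk7, S1pr1, Ccl5 and Slamf1 were added for their roles after their values were seen. Klf8, Sp2, Sp9 and some genes of the other lists were not analysed here. Promoters are RefSeq sequences of GRCm38.p6. Alternatives were the choice of probe set, median centring, quantile normalization, a filter on dim genes, a mean-variance trend, the pool number as a block, and each pool left out. Whether the pool numbers pair the samples is not stated. Deviations of same-numbered pools from their group means correlated at -0.19 over genes, which with 2 pools per group cannot decide it.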

Additional observations from a re-analysis of the deposited data

How the results depend on the processing

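No gene passed the adjusted threshold under any of the 12 alternatives run, of which 1, the block with crossed pool numbers, was chosen after seeing the data. The median over the 10 members stayed between 0.44 and 0.74. Members with a difference above 0 numbered 8, except by the mean of probe sets (9) and the filter on dim genes (7 of the 9 left). Members wholly above wild type numbered 6 or 7 with all pools kept and 7 or 8 with a pool left out. Leaving out a pool cannot undo a separation, so the counts without a pool could not fall. Members wholly below numbered 2 with median centring and 1 to 2 with a pool left out. Genes at an unadjusted p under 0.05 numbered 176 higher and 408 lower with the filter on dim genes, and 244 to 689 higher and 317 to 1082 lower with a pool left out: 244 and 317 without deficient pool 1, and 689 higher without wild type pool 2. The replicate block gave 457 lower, and crossed pool numbers gave 1151 lower. Neither block made a gene pass the adjusted threshold.

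With the mean of probe sets Klf3 came to 0.00640, Klf17 to 0.0469 and Map3k2 to 0.0324; Siah1a came to -0.13 with specific probe sets first, where Klf6 was 0.06; Klf14 came to -0.0462 with median centring and -0.0470 with quantile normalization. With a pool left out, Klf1 ran from -0.64 to 1.82, Klf11 from -0.80 to 0.24, Klf14 from -0.0506 to 0.0681, Klf16 from -0.13 to 0.0451, Sp1 from -0.0155 to 0.52, Sp3 from -0.94 to 0.18 and Hdac5 from -0.94 to 0.11. With 2 pools per group, values near 0 have no settled sign; the cause of these shifts was not tested.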
